A study of Mus musculus with 9 samples.

Results

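Spinal cord of mice with experimental autoimmune encephalomyelitis (EAE) was compared with that of Control mice by RNA sequencing, across all expressed genes. All mice were C57BL/6, the tissue was whole spinal cord, and each group held 3 mice with 1 library each. The third group was EAE mice given the code-named compound EHP-101 by mouth at 20 mg/kg. It entered the scaling of the libraries, the estimate of the spread between them and the gene means behind the length offset below, and is not described. The study states 3 biological replicates per group, and p-values here measure the spread between these samples. How EAE was induced, the sex and age of the mice, the day of sampling, and whether Control and EAE mice received a vehicle or adjuvant are details not given by the sources at hand. The genes described are those with 10 or more counts in 3 or more of the 6 Control and EAE libraries, which were 16623 of the 27179 identifiers in the deposited table. Of these genes 15112 are annotated as protein coding and 807 as long non-coding RNA.

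EAE is a model of multiple sclerosis in which T cells that recognise myelin enter the central nervous system and recruit monocytes and resident microglia. Infiltrates form around vessels and under the meninges of the cord, myelin is lost, and axons and synapses are damaged. Leukocyte receptors, antigen presentation and cytokines are the genes usually described in this tissue. The gene families below were chosen beyond those lists: signalling parts of blood cells, calcium and lipid binding proteins, the cytoskeleton, metabolism, guidance and adhesion molecules, receptors, chromatin and protein turnover.

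The 6 libraries held between 30866039 and 32661741 counts. Mitochondrially encoded genes took 4.44% to 5.47% of them, and the female transcript Xist had 19278 counts or more in every library while the Y-linked Ddx3y had 0 to 3. Markers of the labelled tissue were present: summed neuronal markers ran from 7781 to 8944 CPM in Control (CPM are counts scaled to a common library size) and from 7299 to 8547 in EAE, and summed oligodendrocyte markers from 27631 to 37140 and from 29312 to 33482. Skeletal muscle markers together gave 50.4 CPM in Control replicate 1 and 4.56 CPM or less in the other 5 libraries. Dorsal root ganglion neuron markers gave 116, 40.5 and 31.5 CPM in the Control libraries and 64.2, 73.9 and 105 CPM in EAE. Motor neuron markers gave 460, 282 and 241 CPM in Control and 281, 328 and 421 CPM in EAE. No 2 libraries within a group agreed to sampling noise, with a chi-square per degree of freedom between 8.09 and 26.1.

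Many of the expressed genes differed between EAE and Control cord. At an adjusted p under 0.05 (edgeR's quasi-likelihood test, Benjamini-Hochberg over all 16623 genes) 6207 genes, or 37.3%, were called. Of all genes 3401 (20.5%) were called higher and 2806 (16.9%) lower in EAE. Rises were larger than falls: 1018 genes (6.12%) were called higher by 2-fold or more and 166 (0.999%) lower by as much. The median size of a called change was log2 0.51 for rises and 0.39 for falls, while the median over all genes was 0.01. All 3 EAE libraries lay above all 3 Control libraries for 4278 genes (25.7%) and below them for 3521 (21.2%). Among the genes that passed the filter, 228 had 10 counts in no Control library, so that they could hardly fail to differ, and 218 of them were called higher. Without these and the 21 genes that had 10 counts in no EAE library, 3183 and 2791 calls stood among 16374 genes. Long non-coding RNAs were called less often than protein coding genes in both directions. Of 807 long non-coding RNAs 59 were called higher and 96 lower, at a median of log2 -0.10. Of 15112 protein coding genes 3273 were called higher and 2633 lower, at a median of 0.01. Without EAE replicate 2 the falls numbered 1818. In bulk tissue fewer cells of a type and less RNA per cell cannot be told apart, and this holds for every change below.

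The largest rises outside antigen presentation, chemokines and other classical immune lists included genes of phagocytes, matrix and lipid handling. Ccn5, which encodes a secreted matricellular protein, stood at 0.493, 0.443 and 1.02 CPM in the Control libraries and at 28.8, 36.1 and 32.0 CPM in EAE. The fold was 49.5 (log2 5.63, SE 0.51, adjusted p = 3.52e-05), with a wide gap between the groups. Acod1, which makes itaconate from an intermediate of the tricarboxylic acid cycle in activated macrophages, went from 0.0657, 0.127 and 0.262 to 9.21, 4.64 and 6.02 CPM (log2 5.42, SE 0.52). Ch25h, the enzyme that makes 25-hydroxycholesterol, went from 0.493, 0.285 and 0.328 to 6.46, 8.42 and 4.71 CPM (log2 4.14, SE 0.35). The EAE libraries differed among themselves in both genes, and each lay far above every Control. Tgm1, a transglutaminase that cross-links proteins, rose from at most 0.296 CPM to 9.21, 9.32 and 7.92 CPM (log2 5.32, SE 0.56). Hcar2, a receptor for the ketone body beta-hydroxybutyrate and for niacin, rose by log2 5.44 (SE 0.52), and Plbd1, a phospholipase B-like protein of lysosomes, by 5.14 (SE 0.43). Timp1, an inhibitor of matrix metalloproteinases, was at 1.25, 0.411 and 0.852 CPM in Control against 21.7, 20.7 and 21.9 CPM in EAE (log2 4.68, SE 0.54). Hcar2, Acod1, Tgm1 and Plbd1 rested on 12 to 20 counts over the 3 Controls. These genes passed the filter through the EAE libraries alone, so that they could hardly fail to differ. The exact 95% intervals of their count ratios, for counting error alone, reached down to 28.4, 26.5, 26.7 and 21.0.

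**Figure D1:**
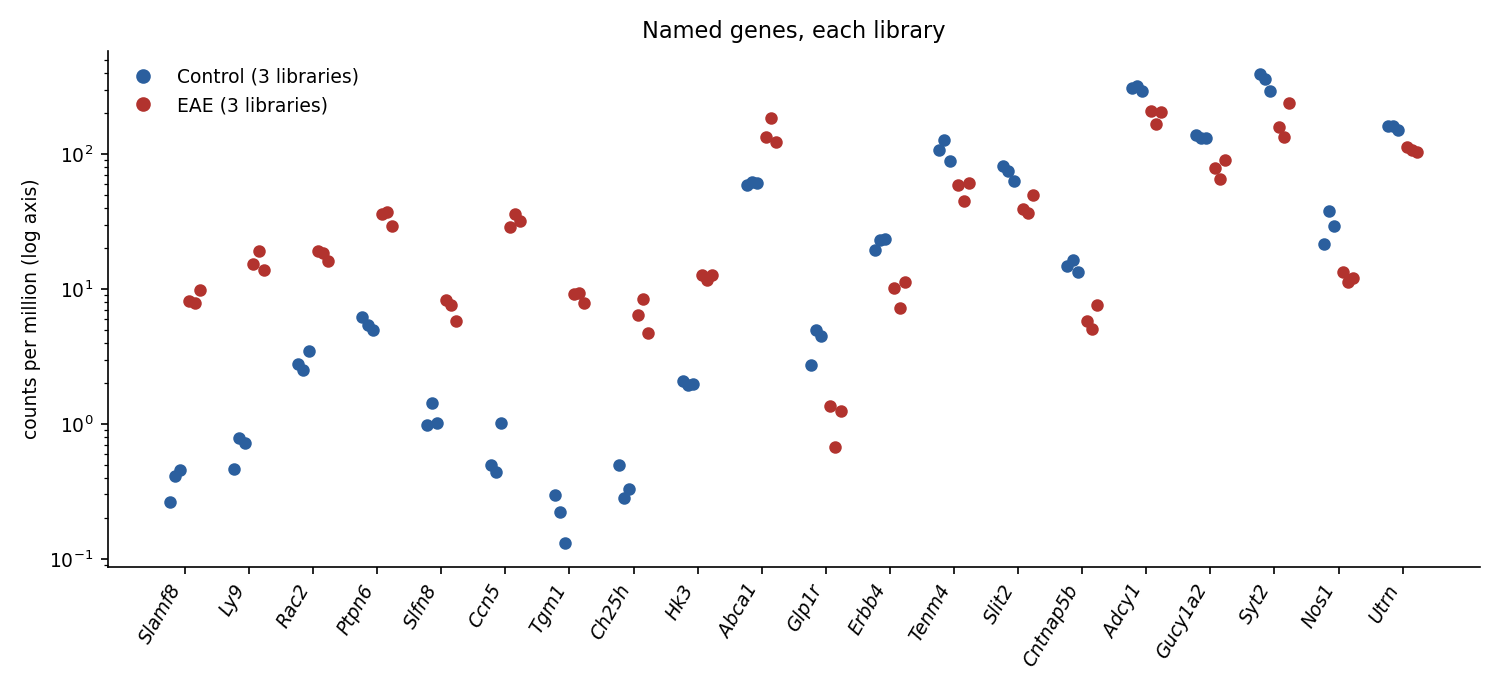
Normalised counts, in CPM (vertical log axis), of 20 genes in the 3 Control libraries (blue) and the 3 EAE libraries (red), 1 point per library. For each gene shown the groups do not overlap, from Ccn5 with 0.443 to 1.02 CPM in Control and 28.8 to 36.1 CPM in EAE to Syt2 with 293 to 390 and 133 to 238 CPM.

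SLAM family receptors of leukocytes bind one another on the surface of contacting cells, and their genes lie together on chromosome 1. Of 11 listed genes 8 passed the filter, and each of the 8 was called higher by 2-fold or more. However, 3 of the 8, Slamf7 among them, passed through the EAE libraries alone and could hardly fail to be called. Slamf7 was at 0, 0.0633 and 0 CPM in Control and 8.94, 10.4 and 8.70 CPM in EAE. It had 2 counts over the Control libraries and 900 over EAE, 439 times as many after scaling (exact 95% interval 121 to 3633). Ly9 (chromosome 1 from 171588613 to 171607360, mm10) went from 0.460, 0.791 and 0.721 to 15.2, 19.0 and 13.8 CPM (log2 4.59, SE 0.51). Slamf8 (chromosome 1 from 172581377 to 172590568) went from 0.263, 0.411 and 0.459 to 8.18, 7.88 and 9.85 CPM (log2 4.50, SE 0.54). Cd84 had more transcript in Control, 3.75, 3.73 and 5.47 CPM, and 27.1, 36.5 and 24.97 CPM in EAE (log2 2.77, SE 0.29). No library of either group overlapped the other in these genes. Summed T cell markers rose beside them from 3.66 to 3.99 CPM in Control to 17.1 to 21.8 CPM in EAE, with 7 of 7 called higher, and monocyte and macrophage markers from 43.2 to 52.2 CPM to 526 to 720 CPM, with 5 of 6 called. Summed microglial markers rose as well, from 285 to 354 CPM in Control to 644 to 874 CPM in EAE, with 4 of 6 called higher and 0 lower. The part of any of these cells in the rises of the SLAM genes and of the blood cell families below was not tested.

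Promoters of some of these genes hold the core of the interferon response element, GAAANNGAA on either strand, to which interferon regulatory factors bind. The motif was searched in RefSeq promoter windows (GRCm38.p6, 250 bases before to 50 after the start), which matched 12656 of the genes tested. It occurred in 7.33% of all windows of these genes, in 17.0% of the windows of genes called higher by 2-fold or more, and in 14.5% once classical immune genes were left out. It was in 6.87% of the windows of genes called lower and in 8.06% of those called lower by 2-fold or more. Some named genes that fell also hold the motif near the start, such as Tenm1 (30 bases before it) and Adgrl3 (67 and 61 bases before it). Windows of 3 named genes that rose are shown because they hold the motif close to the start, with the motif in capitals.
Slamf8, chr1:172590519-172590818, minus strand: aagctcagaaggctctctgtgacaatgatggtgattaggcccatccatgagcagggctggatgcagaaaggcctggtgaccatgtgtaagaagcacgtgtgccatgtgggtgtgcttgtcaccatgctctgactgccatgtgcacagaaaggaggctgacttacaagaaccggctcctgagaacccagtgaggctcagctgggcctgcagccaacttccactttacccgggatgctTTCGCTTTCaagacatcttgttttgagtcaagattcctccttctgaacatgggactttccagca
Slfn8, chr11:83020761-83021060, minus strand: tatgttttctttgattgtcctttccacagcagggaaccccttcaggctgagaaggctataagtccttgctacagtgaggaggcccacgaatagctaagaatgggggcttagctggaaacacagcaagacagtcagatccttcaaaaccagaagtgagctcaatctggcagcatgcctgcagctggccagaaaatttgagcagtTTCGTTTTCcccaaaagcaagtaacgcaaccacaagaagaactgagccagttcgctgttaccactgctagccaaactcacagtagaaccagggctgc
Ddx60, chr8:61927837-61928136, plus strand: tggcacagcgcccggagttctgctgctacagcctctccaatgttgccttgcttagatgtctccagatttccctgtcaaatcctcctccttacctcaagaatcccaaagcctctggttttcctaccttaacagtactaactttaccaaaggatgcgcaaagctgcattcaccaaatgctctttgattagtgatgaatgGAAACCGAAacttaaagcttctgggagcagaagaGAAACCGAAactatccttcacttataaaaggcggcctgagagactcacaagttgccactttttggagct
Slfn8 has a second annotated start, whose window holds the same copy. In Slamf8 the motif starts 14 bases before the start of the transcript and in Slfn8 47 bases before it. Ddx60, an RNA helicase of the antiviral response, has 2 copies, 53 and 19 bases before the start. Its level was 1.64, 1.52 and 1.41 CPM in Control and 6.89, 6.11 and 4.93 CPM in EAE (log2 1.97, adjusted p = 0.000513). The site of the myeloid factor PU.1 (GAGGAAGT, either strand), encoded by Spi1, was found in 2.92% of all windows and in 8.57% of those of genes called higher by 2-fold or more. The TATA box (TATAAA, either strand) was in 7.74% of all windows, 13.9% for rises and 10.5% for falls of 2-fold or more. The GC box (GGGCGG, either strand) went the other way, with 58.4% of all windows, 36.4% for rises and 33.1% for falls of 2-fold or more. The mean GC content of the windows was 59.96% over all genes, 53.7% for rises of 2-fold or more and 55.0% for such falls, so the sets differ in base composition as well as in motifs. A match shows only that these letters are present.

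Signalling proteins of blood cells rose almost throughout. Of 36 kinases, phosphatases and adaptors tested, 31 were called higher and 0 lower, at a median log2 fold change of 1.87. Rac2, the small GTPase of leukocytes that drives migration and the oxidative burst, stood at 2.79, 2.53 and 3.47 CPM in Control and at 19.0, 18.5 and 16.0 CPM in EAE (log2 2.60, SE 0.19, adjusted p = 2.67e-05). Ptpn6, the phosphatase SHP-1 that restrains immune receptors, went from 6.24, 5.44 and 4.98 to 36.0, 37.5 and 29.3 CPM (log2 2.62, SE 0.20). The Src-type kinase Fgr rose from 0.657, 1.11 and 0.622 to 6.79, 7.56 and 5.17 CPM (log2 3.02, SE 0.27), and the phospholipase Plcg2 by log2 1.63 (SE 0.14). The groups were far apart in each of these genes, and the EAE libraries lay close to each other. Of 26 Ikaros, RUNX and ETS transcription factors of blood cells 15 were called higher and 1 lower, where 5 of the 26 passed the filter through EAE alone. Spi1 rose by log2 2.23 (SE 0.19). Runx1, which sets up blood cell fates, went from 1.45, 1.61 and 1.34 to 6.95, 8.55 and 5.99 CPM (log2 2.28, SE 0.29). Ikzf4 was the 1 factor called lower (log2 -0.59, SE 0.13).

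Genes of intracellular defence against viruses and retroelements formed another rising group. Of 16 Schlafen, SP100 and APOBEC genes tested, 1 of them expressed at the filter level in EAE alone, 12 were called higher and 1 lower, at a median log2 fold change of 1.72. Slfn8 stood at 0.986, 1.42 and 1.02 CPM in Control and 8.24, 7.65 and 5.83 CPM in EAE (log2 2.66, SE 0.35). Apobec1, an enzyme that deaminates cytidine in RNA, went from 2.69, 3.99 and 3.67 to 16.6, 19.7 and 12.8 CPM (log2 2.24, SE 0.24), and Sp140, a nuclear body protein of leukocytes, rose by log2 2.21 (SE 0.31). All of the rises named here left a gap between the groups. Adar, which edits adenosine in double-stranded RNA, was the gene called lower (log2 -0.24, SE 0.08, adjusted p = 0.0301). It was listed with these genes but belongs to none of the 3 families named. The call ended without Control replicate 1 or 2 or EAE replicate 2. Of 14 ADP-ribosyl transferases of the PARP family 5 were called higher, or 35.7% against 20.5% over all genes. Parp14 went from 6.54, 6.86 and 6.68 to 22.01, 20.8 and 18.9 CPM (log2 1.62, SE 0.23). The TRIM ubiquitin ligases had 11 of 49 called higher and 9 lower, which is 22.4% and 18.4% and near the 20.5% and 16.9% over all genes. Their rises included Trim30a (log2 1.93, SE 0.27) and Trim25 (log2 0.79, SE 0.13), which acts on the RNA sensor RIG-I, and one of their falls was Trim66 (log2 -0.56, SE 0.09). Among the GIMAP GTPases of lymphocytes 5 of 8 were called higher, where 2 of the 8 passed through EAE alone, and Gimap4 rose by log2 3.17 (SE 0.41). In the BCL2 and caspase group 16 of 33 were called higher and 3 lower, where 2 of the 33 passed the filter through EAE alone. They ranged from Bax, a pore-forming death protein, with 20.7, 20.8 and 23.1 against 31.7, 32.7 and 34.0 CPM (log2 0.61, SE 0.07), to Bcl2a1b, a survival protein of leukocytes (log2 3.51, SE 0.45). Bcl2a1, Slfn and Trim30 genes have near-identical neighbours, so their single levels are uncertain.

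Calcium-binding, lipid-binding and cytoskeletal genes of motile and reactive cells also rose. Of 12 S100 genes tested, 1 of which passed the filter through EAE alone, 8 were called higher and 1 lower. S100a4, a regulator of cell motility, stood at 1.12, 1.17 and 2.16 CPM in Control and 17.1, 22.6 and 18.2 CPM in EAE (log2 3.70, SE 0.32). S100a6 went from 17.9, 20.0 and 30.5 to 94.0, 124 and 116 CPM (log2 2.29, SE 0.20). The fall was in S100pbp (log2 -0.50, SE 0.09), whose product binds an S100 protein and is not one itself. Of 9 annexins, which bind membranes in the presence of calcium, 5 were called higher and 0 lower, such as Anxa3 at 13.9, 13.0 and 16.2 against 50.9, 74.9 and 51.4 CPM (log2 2.04, SE 0.20). Of 8 genes listed as galectins 4 were called higher and 0 lower, including Lgals3 (log2 3.18, SE 0.25). Another was Lgals3bp (log2 2.57, SE 0.20), whose product binds a galectin and is not one itself. Of 24 tetraspanins 13 were called higher and 0 lower. Cd9 went from 59.3, 56.7 and 78.3 to 166, 208 and 171 CPM (log2 1.49, SE 0.14), and Cd63, of late endosomes and exosomes, rose by log2 1.35 (SE 0.12). Of 29 actin regulators 21 were called higher and 0 lower, at a median of log2 0.34. Arpc1b, a subunit of the complex that branches actin filaments, rose from 14.9, 13.5 and 17.2 to 59.7, 70.6 and 56.7 CPM (log2 2.04, SE 0.16). The unconventional myosins split by gene, with Myo1f of leukocytes higher (log2 2.77, SE 0.23) and the vesicle motor Myo5a lower (log2 -0.53). As a family these myosins had 3 of 21 called higher and 4 lower, at a median of log2 -0.12. These shares of 14.3% and 19.0% were near the 20.5% and 16.9% over all genes.

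**Figure D2:**
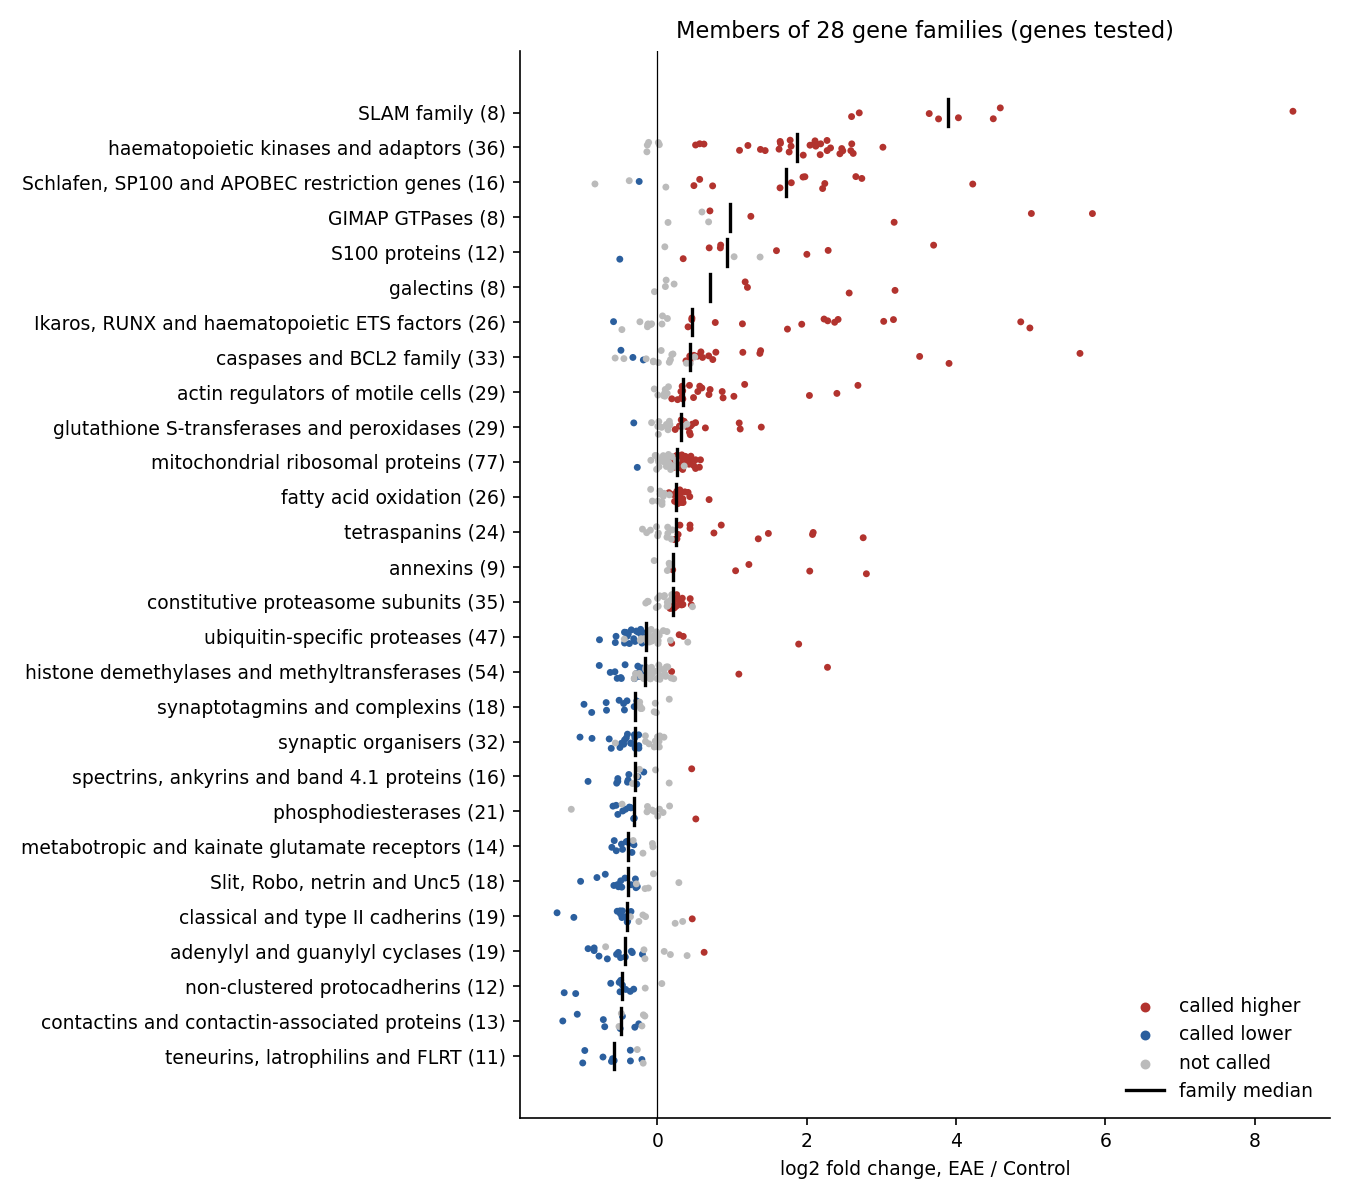
Log2 fold change, EAE over Control (horizontal axis), of the tested members of 28 gene families, 1 point per gene, with the number of genes tested in brackets and the family median as a bar. Red points were called higher, blue points lower and grey points were not called. Medians run from 3.90 for the SLAM family to -0.58 for teneurins, latrophilins and FLRT proteins.

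Single metabolic enzymes rose or fell. In glycolysis 5 of 21 genes were called higher, or 23.8% against 20.5% over all genes, and 1 lower. Hk3, the hexokinase of myeloid cells, stood at 2.07, 1.93 and 1.97 CPM in Control and 12.8, 11.7 and 12.6 CPM in EAE (log2 2.64, SE 0.21), and the inducible hexokinase Hk2 rose by log2 2.06 (SE 0.21). Ldha, which makes lactate, rose by log2 0.53 (SE 0.07). Of 29 glutathione S-transferases and peroxidases 15 were called higher and 1 lower. Gpx1, which reduces peroxides with glutathione, went from 61.1, 56.5 and 66.3 to 124, 142 and 131 CPM (log2 1.11, SE 0.09), and the peroxiredoxin Prdx6 from 277, 308 and 320 to 596, 791 and 549 CPM (log2 1.10, SE 0.13). In both genes every EAE library lay well above every Control. Fatty acid oxidation genes were called higher in 16 of 26 and lower in 0, by small amounts at a median of log2 0.25, with Acads, the short-chain acyl-CoA dehydrogenase, at 13.3, 11.1 and 10.3 against 18.8, 19.0 and 18.3 CPM (log2 0.69, SE 0.10). Without EAE replicate 2 the 16 became 9, and the 15 peroxidase and transferase genes became 9 without that library or without Control replicate 1 or 2. Fatty acid synthesis leaned lower, with 11 of 27 called lower and 3 higher. Scd1, the stearoyl-CoA desaturase, fell from 742, 774 and 951 to 571, 551 and 536 CPM (log2 -0.57, SE 0.09), and the elongase Elovl6 had log2 -0.53 (SE 0.06). Among transporters, the lysosomal peptide carrier Slc15a3 went from 1.58, 1.80 and 1.67 to 19.1, 22.3 and 15.2 CPM (log2 3.48, SE 0.29). Abca1, which exports cholesterol from cells, rose from 58.8, 62.1 and 61.3 to 133, 185 and 123 CPM (log2 1.27, SE 0.15), while Abcb1a, the drug efflux pump of brain endothelium, fell (log2 -1.07, SE 0.18). Summed endothelial markers were also lower, at 184 to 282 CPM in Control and 94.1 to 153 CPM in EAE with 6 of 6 called, and their part in the fall of Abcb1a was not tested.

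Single matrix and growth factor genes moved in both directions. Of 33 proteoglycan and hyaluronan matrix genes, 1 of which passed through EAE alone, 10 were called higher and 3 lower. These shares were 30.3% and 9.09%, against 20.5% and 16.9% over all genes. Tnc and Tnr, which encode the 2 tenascins of nervous tissue, went opposite ways. Tnc, the form made around injury, stood at 6.34, 8.19 and 9.10 CPM in Control and 18.2, 16.7 and 15.6 CPM in EAE (log2 1.10, SE 0.13). Tnr, the form of perineuronal nets and oligodendrocytes, stood at 71.7, 69.3 and 62.6 CPM against 36.5, 32.2 and 39.8 CPM (log2 -0.91, SE 0.10). Fmod, a collagen-binding proteoglycan, rose by log2 2.17 (SE 0.25), beside meningeal fibroblast markers that summed to 110 to 114 CPM in Control and 191 to 198 CPM in EAE. Whether these cells carried its rise was not tested. Among neurotrophic factors and their receptors 8 of 25 (32%) were called higher and 2 (8%) lower, against 20.5% and 16.9% over all genes. The cytokine Osm, the 1 of the 25 that passed the filter through EAE alone, rose by log2 3.65 (SE 0.60) on 9 counts over the Controls against 122 in EAE (count ratio 13.2, exact 95% interval 6.75 to 29.6). Its receptor subunit Osmr went from 7.59, 7.50 and 8.84 to 21.0, 29.1 and 18.8 CPM (log2 1.53, SE 0.23). In the Wnt group, with 10 of 44 called higher (6 without any 1 EAE library) and 9 lower (4 without Control replicate 1 or EAE replicate 2, 5 without Control replicate 2), the shares of 22.7% and 20.5% were near those over all genes. Its receptor Fzd10 rose by log2 1.67 (SE 0.16). Of 13 neuregulins and their ErbB receptors 2 were called higher and 4 lower, or 15.4% and 30.8% against 20.5% and 16.9% over all genes. Among the receptors Erbb4 fell from 19.5, 23.2 and 23.5 to 10.2, 7.17 and 11.2 CPM (log2 -1.21, SE 0.15) and Erbb3 by log2 -0.58 (SE 0.11).

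Falls outside classical lists were smaller, and the larger ones included receptor, enzyme and structural genes. Glp1r, the receptor of glucagon-like peptide 1, stood at 2.73, 4.93 and 4.52 CPM in Control and 1.36, 0.672 and 1.25 CPM in EAE (log2 -1.89, SE 0.39). Dnah12, a dynein heavy chain of cilia, went from 2.66, 6.61 and 4.19 to 1.78, 0.704 and 1.37 CPM (log2 -1.80, SE 0.35). In Glp1r and Dnah12 the groups did not overlap, but Control replicate 1 lay near the highest EAE library. Nos1, the neuronal nitric oxide synthase, went from 21.6, 38.1 and 29.4 to 13.4, 11.2 and 12.03 CPM (log2 -1.28, SE 0.21). Shroom4, a cytoskeletal organiser, had log2 -1.34 (SE 0.18), and Cyyr1, an endothelial surface protein, log2 -1.32 (SE 0.32).

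Many cell-surface molecules of guidance and adhesion fell, more often in some families than in others. Of 11 teneurins, latrophilins and FLRT proteins, which bind each other across synapses, 9 were called lower and 0 higher, at a median of log2 -0.58. Tenm1 stood at 26.2, 29.7 and 25.02 CPM in Control and 14.04, 10.2 and 16.2 CPM in EAE (log2 -0.999, SE 0.16). Adgrl3, a latrophilin, went from 82.9, 95.1 and 85.6 to 60.9, 51.7 and 61.4 CPM (log2 -0.60, SE 0.09). Of 18 Slit, Robo, netrin and Unc5 genes, ligands and receptors that steer axons, 13 were called lower and 0 higher. The ligand Slit2 fell from 81.4, 75.4 and 62.7 to 39.2, 36.8 and 49.3 CPM (log2 -0.81, SE 0.13) and Slit3 by log2 -0.70 (SE 0.12). Every Control library lay above every EAE library in these genes. Among 13 contactins and contactin-associated proteins 8 were called lower and 0 higher. Cntnap5b went from 14.7, 16.4 and 13.4 to 5.80, 5.06 and 7.61 CPM (log2 -1.27, SE 0.16), its paralogue Cntnap5a by log2 -1.07 (SE 0.13), and Cntnap2, which clusters potassium channels beside nodes of Ranvier, by log2 -0.70 (SE 0.10). Of 19 classical and type II cadherins 12 were called lower and 1 higher, with Cdh6 at log2 -1.12 (SE 0.19). The 12 include Cdh5, one of the endothelial markers above (log2 -1.34, SE 0.22). Of 12 non-clustered protocadherins 10 were called lower and 0 higher, with Pcdh11x at log2 -1.25 (SE 0.21). Of 56 clustered protocadherins, which share exons within a cluster, 25 were called lower and 1 higher. Other guidance families moved less. Semaphorins, plexins and neuropilins had 8 of 31 called lower and 5 higher, or 25.8% and 16.1% against 16.9% and 20.5% over all genes. Plxnb2, a semaphorin receptor, was among the rises, at 62.2, 74.0 and 62.6 against 117, 129 and 106 CPM (log2 0.82, SE 0.11). The 8 falls of this family became 5 without Control replicate 2 or EAE replicate 2 and 13 without Control replicate 3. Eph receptors and ephrins had 6 of 21 called lower, or 28.6% against 16.9% over all genes, and 0 higher. Some of these counts fell when 1 library was left out: without Control replicate 2 teneurins and their partners had 5 lower and clustered protocadherins 14. Without EAE replicate 2 the Slit group had 7, contactins 5 and clustered protocadherins 13, and the last had 16 without EAE replicate 1. Classical and type II cadherins had 8 without Control replicate 1 or EAE replicate 2. Of 9 neuronal markers 3 were called lower and 0 higher, at a median of log2 -0.09, where 16.9% and 20.5% of all genes were called lower and higher. The part of neurons in the falls of these families was not tested.

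Genes of synaptic transmission and of second messengers leaned the same way. Of 32 synaptic organisers, such as neurexins and Slitrk proteins, 19 were called lower and 0 higher. Slitrk3, which builds inhibitory synapses, went from 48.7, 47.6 and 45.7 to 30.6, 26.1 and 35.8 CPM (log2 -0.62, SE 0.10). Of 18 synaptotagmins and complexins, the calcium sensors and clamps of vesicle release, 10 were called lower and 0 higher. Syt2, the sensor of fast release, stood at 390, 360 and 293 CPM in Control and 158, 133 and 238 CPM in EAE (log2 -0.98, SE 0.21). EAE replicate 3 was nearest to Control in that gene, and the groups did not overlap. The 10 became 6 without Control replicate 2 or EAE replicate 2. Of 14 metabotropic and kainate glutamate receptors 10 were called lower and 0 higher, with Grm3 at 39.9, 39.9 and 47.0 against 29.7, 25.7 and 27.7 CPM (log2 -0.61, SE 0.08). Of 28 monoamine receptors 9 were called lower, or 32.1% against 16.9% over all genes, and 1 higher. Adra1a, an alpha-1 adrenergic receptor, went from 20.7, 15.9 and 14.7 to 8.52, 7.78 and 10.7 CPM (log2 -0.93, SE 0.16) and the serotonin receptor Htr1b by log2 -0.98 (SE 0.18), while Htr2b, which passed the filter through EAE alone, was called higher on 7 counts over Control against 33 in EAE (ratio 4.603, exact 95% interval 2.002 to 12.3). Of 19 adenylyl and guanylyl cyclases 12 were called lower and 1 higher. Gucy1a2, a subunit of the receptor of nitric oxide, fell from 138, 132 and 132 to 78.9, 65.2 and 90.1 CPM (log2 -0.78, SE 0.10), and Adcy1, a neuronal cyclase driven by calcium, from 309, 321 and 292 to 209, 168 and 204 CPM (log2 -0.67, SE 0.09). The exception was Adcy7, a cyclase found in blood cells, at 27.9, 34.4 and 28.2 against 48.6, 49.2 and 41.8 CPM (log2 0.63, SE 0.10). Phosphodiesterases, which break down cyclic nucleotides, were called lower in 10 of 21 and higher in 1, with Pde7b at log2 -0.55 (SE 0.08) and Pde3b at 0.52 (SE 0.11).

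Chromatin regulators, large scaffold proteins and protein turnover genes showed small shifts shared by many members. Histone methyltransferases and demethylases were called lower in 21 of 54 (1 of which passed through EAE alone) and higher in 3, such as Kdm7a with log2 -0.54 (SE 0.07). Ubiquitin-specific proteases were called lower in 20 of 47 and higher in 4, with Usp9x, of the X chromosome, from 267, 268 and 297 to 160, 148 and 179 CPM (log2 -0.78, SE 0.09). One of the 4 called higher was Usp18, an interferon-induced protease that removes ISG15, at 1.35, 1.87 and 1.605 against 8.21, 5.57 and 4.15 CPM (log2 1.89, SE 0.30). Spectrins, ankyrins and band 4.1 proteins, the scaffold under the membrane, were called lower in 10 of 16 and higher in 1. Mitochondrial ribosomal proteins went up as a body, with 52 of 77 called higher and 1 lower at a median of only log2 0.26. Of 35 constitutive proteasome subunits 20 were called higher and 0 lower, at a median of log2 0.21. Several of these counts depended on single libraries. With 1 library left out, the 21 histone enzymes called lower numbered 15 to 25 and the 20 proteases called lower 14 to 21. The 4 proteases called higher became 1 without EAE replicate 2 and 2 without Control replicate 1 or EAE replicate 1. The 3 histone enzymes called higher became 2 without EAE replicate 1 or 3. Spectrins and ankyrins had 5 lower without Control replicate 1 or EAE replicate 2 and 6 without Control replicate 2. Mitochondrial ribosomal proteins had 27, 34 and 28 higher without Control replicate 2, EAE replicate 1 and EAE replicate 2, and proteasome subunits 10 to 12 without any 1 library other than Control replicate 3. The genes of the families that rose in this way are short and those of the families that fell are long: the median exonic length was 1055 bases for mitochondrial ribosomal proteins, 1436 for proteasome subunits, 5204 for histone methylation enzymes and 7814 for spectrins and ankyrins.

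Change and length were related across the whole table. The Length of a gene is the summed width of its annotated exons, which was checked for all 27179 identifiers, and the genes tested were divided by it into 10 bins of equal size. In the shortest bin (30 to 1080 bases) 716 of 1663 genes, 43.1%, were called higher and 42, or 2.53%, lower, at a median log2 fold change of 0.28. In the longest bin (6102 bases or more) 80 of 1663, 4.81%, were called higher and 931, or 55.98%, lower, at a median of -0.26. Between them the median fell from each bin to the next, crossing 0 between bins 5 and 6. The share of all counts that came from the longest bin was 21.4%, 21.9% and 20.4% in the Control libraries and 18.3%, 17.3% and 18.5% in EAE. Rises of 2-fold or more also became fewer with Length, from 149 in bin 2 to 34 in the longest.

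**Figure D3:**
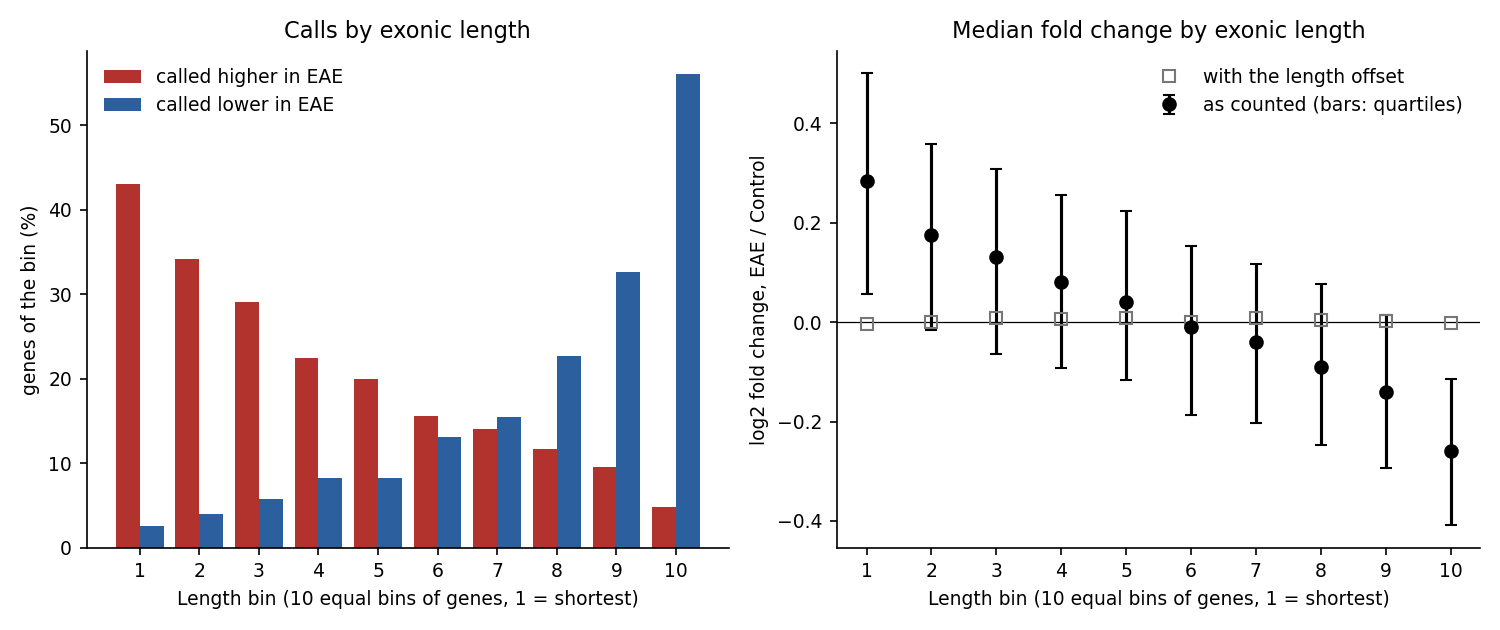
Left, percent of genes called higher (red) or lower (blue) in EAE in each of 10 bins of genes by Length, from the shortest (1) to the longest (10). Right, median log2 fold change of each bin as counted, with quartiles as bars, and with the length trend of each library removed by an offset (open squares); the first falls from 0.28 to -0.26 and the second stays within 0.01 of 0.

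The trend was measured in each library relative to the mean of the 6. A line was fitted in each library through log2 CPM, minus the mean of the 6 libraries, against log2 Length. Its slope was 0.0749, 0.109 and 0.0618 per doubling of Length in Control replicates 1 to 3 and -0.0753, -0.106 and -0.0647 in EAE replicates 1 to 3. The means were 0.0820 ± 0.0246 in Control and -0.0820 ± 0.0215 in EAE (SD, n = 3; exact permutation p = 0.1, 2-sided, the smallest that 3 against 3 allows). All 3 slopes of one group lay on the other side of 0 from those of the other. Centring on the 6 libraries favours this, since it makes the slopes sum to 0 and the group means mirror each other. A slope is therefore not the trend of a library on its own. Control replicate 2 and EAE replicate 2 had the steepest slopes of their groups. Per gene the relation was loose: Pearson's r across genes, which are not independent replicates, was 0.150 to 0.249 in Control and -0.242 to -0.180 in EAE. Ribosomal protein genes, which are short, took 0.465% to 0.550% of counts in Control and 0.695% to 0.762% in EAE. The count-weighted mean Length was 4209 to 4371 bases and 3908 to 4033 bases.

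**Figure D4:**
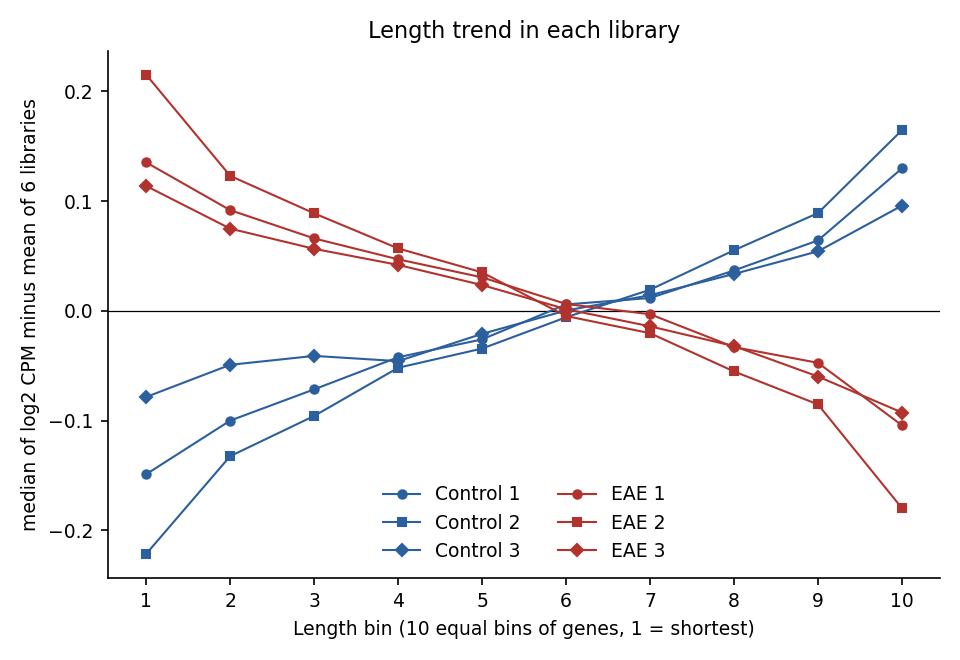
Median over the genes of each Length bin (horizontal axis, 1 is shortest) of log2 CPM minus the mean of the 6 libraries (vertical axis), 1 line per library. The Control lines (blue) rise from -0.22 to -0.08 in the shortest bin to 0.10 to 0.16 in the longest, and the EAE lines (red) fall from 0.11 to 0.22 to -0.18 to -0.09.

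The trend was also seen with other measures of a gene. By genomic span, from the first to the last exon, 32.8% of the shortest bin and 6.37% of the longest were called higher, and 4.03% and 45.9% lower. With genes split into 3 equal classes by each measure, those long in both exons and span were called lower in 43.8% and higher in 7.07%, and genes short in both were called higher in 38.7% and lower in 2.58%. Genes with long exons and short span were called lower in 21.6%, and genes with short exons and long span in 13.2%. Among the class of genes with the most counts, 52.0% of the short were called higher and 45.3% of the long lower. In the class with the fewest counts these shares were 21.2% and 16.8%.

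Some genes ran against the trend. In the longest bin Cd84, Runx1, Dock2 and Wdfy4 gave the largest rises by the naming rule. Dock2, which activates Rac in migrating leukocytes and has a Length of 6330 bases, stood at 6.77, 6.29 and 6.94 CPM in Control and 31.5, 34.2 and 26.8 CPM in EAE (log2 2.21, SE 0.19). Wdfy4, needed for cross-presentation in dendritic cells and 9681 bases long, went from 3.75, 3.13 and 3.64 to 15.3, 13.9 and 12.1 CPM (log2 1.97, SE 0.22). In the shortest bin falls were led by Dok6, an adaptor of the Ret receptor, from 7.59, 9.08 and 10.2 to 3.56, 2.82 and 4.71 CPM (log2 -1.27, SE 0.17). The alpha globin gene Hba-a2, which has a near-identical copy, fell from 2.40, 4.11 and 3.18 to 1.27, 1.601 and 1.81 CPM (log2 -1.05, SE 0.25), one of 2 red blood cell markers tested, both called lower. Genes that followed the trend with the smallest p were the scaffold Utrn (log2 -0.55, SE 0.06), Rasal2, Akap9 and Zdbf2 among the long and Cd52, Cd68, Gpx1 and the ferritin chain Ftl1 (log2 1.31, SE 0.11) among the short.

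Once the length trend of each library was entered as an offset, fewer genes were called, and families differed in how far their counts of calls moved. With the offset 2569 genes (15.5%) were called higher and 1717 (10.3%) lower. Of the original calls 2213 rises and 1445 falls were kept, 354 and 270 were gained, and 4 genes were called in the opposite direction. Counts of rises in 3 blood cell and defence families were equal in number with the offset, at 31 of 36 signalling genes, 8 of 8 SLAM genes and 12 of 16 Schlafen, SP100 and APOBEC genes, where Adar was no longer called. Ikaros, RUNX and ETS factors had 16 called higher and 2 lower in place of 15 and 1. For actin regulators the number was 17 in place of 21, for S100 genes 7 in place of 8 and for annexins 5 as before. Mitochondrial ribosomal proteins had 8 called higher in place of 52 and a median of log2 0.04, and proteasome subunits 2 in place of 20 and a median of 0.03. Mrps24 (log2 0.44 as counted) had 0.21 with an adjusted p of 0.0571, and Psmb2 (0.33 as counted) had 0.06 with an adjusted p of 0.419. Fatty acid oxidation genes had 8 called higher in place of 16, and glutathione S-transferases and peroxidases 7 in place of 15.

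Among falling families the counts of falls dropped by varying amounts, while the share called lower over all genes went from 16.9% to 10.3%. Teneurins, latrophilins and FLRT proteins had 5 called lower in place of 9 at a median of log2 -0.42, contactins 5 in place of 8, cadherins 9 in place of 12, synaptotagmins and complexins 8 in place of 10, metabotropic and kainate receptors 7 in place of 10 and cyclases 8 in place of 12. Slit, Robo, netrin and Unc5 genes had 6 in place of 13, synaptic organisers 9 in place of 19, phosphodiesterases 4 in place of 10, non-clustered protocadherins 6 in place of 10, clustered protocadherins 17 in place of 25 and fatty acid synthesis genes 6 in place of 11. Cntnap5b had log2 -1.13 with the offset, Slit2 -0.55, Tenm1 -0.73 and Syt2 -0.94, all still called. Histone methylation enzymes had 4 called lower in place of 21 and spectrins and ankyrins 3 in place of 10, with medians of log2 0.03 and -0.03. Kmt2c, a histone methyltransferase of 16820 bases, went from log2 -0.49 (adjusted p = 0.000961) to -0.03 (0.672), Sptbn1 from -0.38 to -0.04 (0.666) and the kinesin Kif1b from -0.49 to -0.07 (0.421). Ubiquitin-specific proteases had 8 called lower in place of 20. Over all 86 families 38 medians were above 0 and 48 below, and 17 changed sign with the offset. The source of the length trend was not tested, and the trend and the group cannot be told apart.

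**Figure D5:**
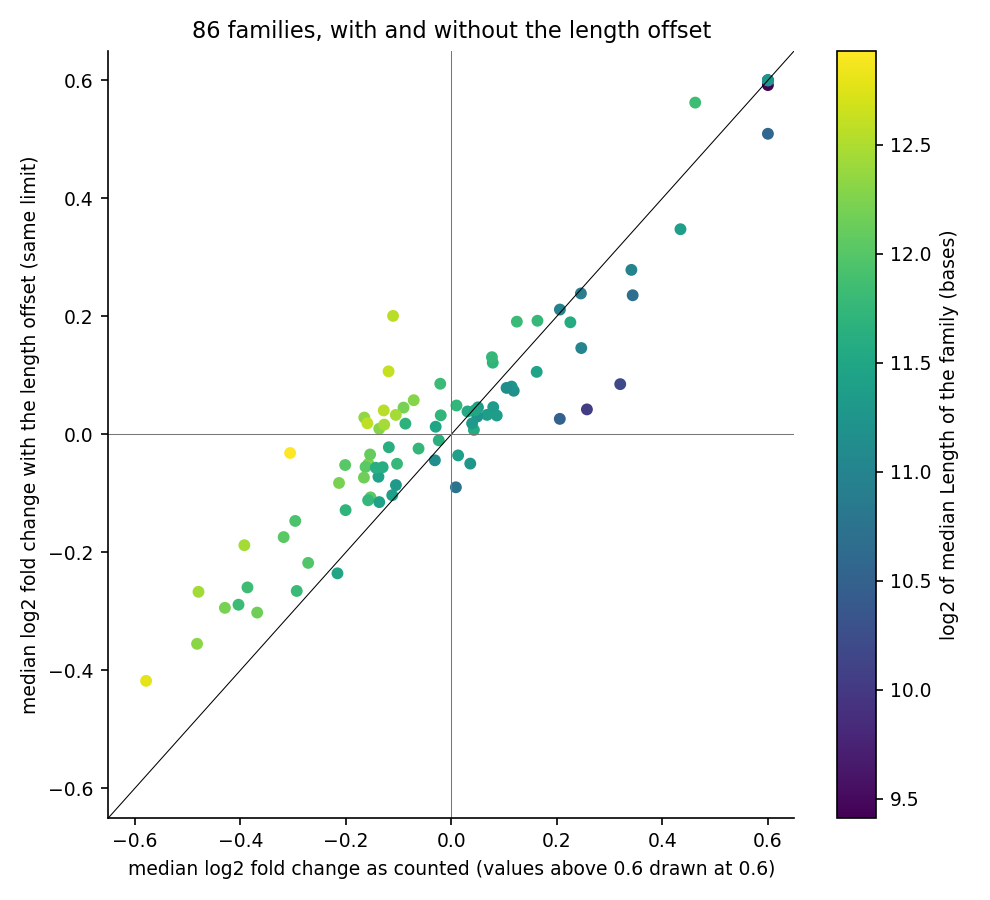
Median log2 fold change of each of 86 gene families as counted (horizontal axis) and with the length offset (vertical axis), coloured by the log2 of the median Length of the family in bases, with the line of equal values; medians above 0.6 are drawn at 0.6. Spectrins and ankyrins (median Length 7814 bases) move up from -0.31 to -0.03 and mitochondrial ribosomal proteins (1055 bases) down from 0.26 to 0.04, and 17 families change sign.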

How the data were processed

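Whole spinal cord RNA of 9 C57BL/6 mice was sequenced as poly-A selected, stranded, single-end 50-base libraries, per the labels' protocols. The authors deposited 1 table of raw counts per gene with a Length column. The submitters' processing notes name mm10, HISAT2 2.1.0, Trimmomatic 0.36, DESeq2 1.20.0 and featureCounts 1.6.1, with no roles; strand setting and treatment of reads with several matches are not stated in the sources at hand. Totals of the 6 libraries compared, 30866039 to 32661741 counts, limit precision mainly for genes with few counts, and exact intervals of count ratios (95%) cover counting error only.

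Here edgeR 4.0.16 (R 4.3.3; TMM scaling, quasi-likelihood test) was fitted to the 9 libraries with 1 mean per group and tested for EAE minus Control, with Benjamini-Hochberg adjustment over 16623 genes. SE is the absolute log2 fold change divided by the square root of F. CPM used TMM-scaled totals. For the offset, log2 CPM minus the gene's mean over the 9 libraries was smoothed against log2 Length in each library by lowess (span 0.3). Symbols and promoters came from RefSeq tables of GRCm38.p6, with 16210 of the genes matched to a symbol. Alternatives were DESeq2 1.42.0, other scalings and filters, a replicate block, the length offset and leaving out each library. The scripts were checked on simulated counts.

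The comparison, the 86 families, the marker lists and the motifs were chosen with earlier results of these data known. Genes were named by rule: the 15 largest called rises and falls outside the classical immune list with no overlap between groups, the called genes of smallest p in each family and direction, and called genes of the longest and shortest Length bins, with and against the trend; the text describes part of them.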

Additional observations from a re-analysis of the deposited data

How the results depend on the processing

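Against 3401 genes called higher and 2806 lower, the length offset gave 2569 and 1717, a replicate block 3005 and 2384, and the length offset with replicate block 2219 and 1341. Deviations of same-numbered Control and EAE libraries from their group means had correlations of -0.0634, -0.1 and -0.0896. For same-numbered EAE and EAE+EHP-101 libraries these were -0.102, 0.116 and -0.184. The labels do not say whether a number marks a pair, and correlations among so few libraries cannot settle it. DESeq2's test gave 3126 and 3042, DESeq2's size factors 3186 and 3027, library totals 3759 and 2508, and the 6 libraries alone 2874 and 2526. Leaving out 1 of the 6 libraries gave 2462 to 3764 called higher and 1818 to 3203 lower, the fewest without EAE replicate 2, and 2282 rises and 1675 falls were kept in all 6. The difference in slope on Length (-0.164) was -0.150 to -0.174 with 1 library left out, -0.0744 on genomic span, -0.192 for genes with 100 or more counts on average, -0.119 without genes called at 2-fold or more and -0.211 for protein coding genes, the last chosen after seeing the data. Among the genes named by rule, the sign turned with the length offset, alone and with the replicate block, for 3 that were then not called, Pcdh15 (0.0789 and 0.0797), Pde1c (0.0275 and 0.0286) and Pfkfb2 (0.11 and 0.11). The cause of these shifts was not tested. Genes with few Control counts have folds limited by depth.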
